A study of Rattus norvegicus with 10 samples.

Results

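Fatty acid oxidation, ketone body and PPARa target genes were followed in the livers of Eisai hyperbilirubinemic rats (EHBR) and Sprague-Dawley (SD) rats. The members were 36 gene symbols, each matched to the gene symbol column of the deposited expression table. Of these symbols, 33 were found among the table's 32883 genes, while Acaa1b, Decr2 and Eci2 had no matching symbol and were not analysed here. The level of each gene is given in TPM, a unit per transcript length that adds up to the same total in every sample. A filter of at least 1 TPM in at least 5 samples left 11083 genes for testing, among them 32 members. Acot1 was the member that did not pass it.

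EHBR is a mutant line derived from SD stock that lacks the canalicular export pump Mrp2, the product of Abcc2, and has conjugated hyperbilirubinemia. The samples are liver poly(A) RNA of males aged 5 weeks, 5 per strain with titles numbered 1 to 5, and no treatment is named. The SD rats do not carry the EHBR mutation, and in these samples loss of Mrp2 and every other difference between the lines cannot be told apart. Feeding state and time of day at collection are not given in the sources used here. The libraries held 13.8 to 17.6 M (mega) reads assigned to genes in EHBR and 15.6 to 19.6 M in SD. Abcc2 stood at 12.3 to 17.6 TPM in EHBR samples 1 to 3 and at 11.9 and 10.1 TPM in EHBR samples 4 and 5. In SD it stood at 199 to 271 TPM in samples 1 to 3 and at 59.98 and 66.4 TPM in samples 4 and 5. The labels do not say how animals were paired or housed, so a p-value reflects no more than variation among these libraries.

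Fatty acids enter oxidation as acyl-CoA, cross into mitochondria as carnitine esters, and are shortened in cycles of dehydrogenation, hydration, dehydrogenation and thiolysis. Very long and branched chains are first shortened in peroxisomes. In liver the acetyl-CoA that results feeds ketone body synthesis, which rises in fasting. PPARa is the nuclear receptor that fatty acids activate, and it induces many of these enzymes by binding, with RXR, to direct repeats of the hexamer AGGTCA spaced by 1 base (DR1 elements). Albumin, the defining hepatocyte transcript, stood at 100582 to 115754 TPM in EHBR and 75563 to 103077 TPM in SD. In bulk tissue, fewer cells of a type and less RNA per cell cannot be told apart.

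Of the 32 members tested, 4 passed the test between the strains and 28 did not. Acsl5 and Acad9 rose in EHBR livers and Acaa2 and Acat1 fell, while the other 28 kept members had an adjusted p between 0.0588 and 0.999 (limma). Over all 11083 genes, 3.82% were called higher and 1.63% lower, against 2 and 2 of 32 members. Differences are on the log2(TPM + 1) scale, EHBR minus SD, from limma with Benjamini-Hochberg adjustment over all 11083 genes and a threshold of 0.05. The median member differed by 0.12 and the median gene by 0.15, so the list lay close to the shift of all genes. With sample medians set equal, these medians became -0.05 and -0.02, and the 423 higher and 181 lower genes became 193 and 266. The strains did not overlap in 5 members, 3 of them higher in EHBR (6.45% of all genes) and 2 lower (2.02%).

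**Figure D1:**
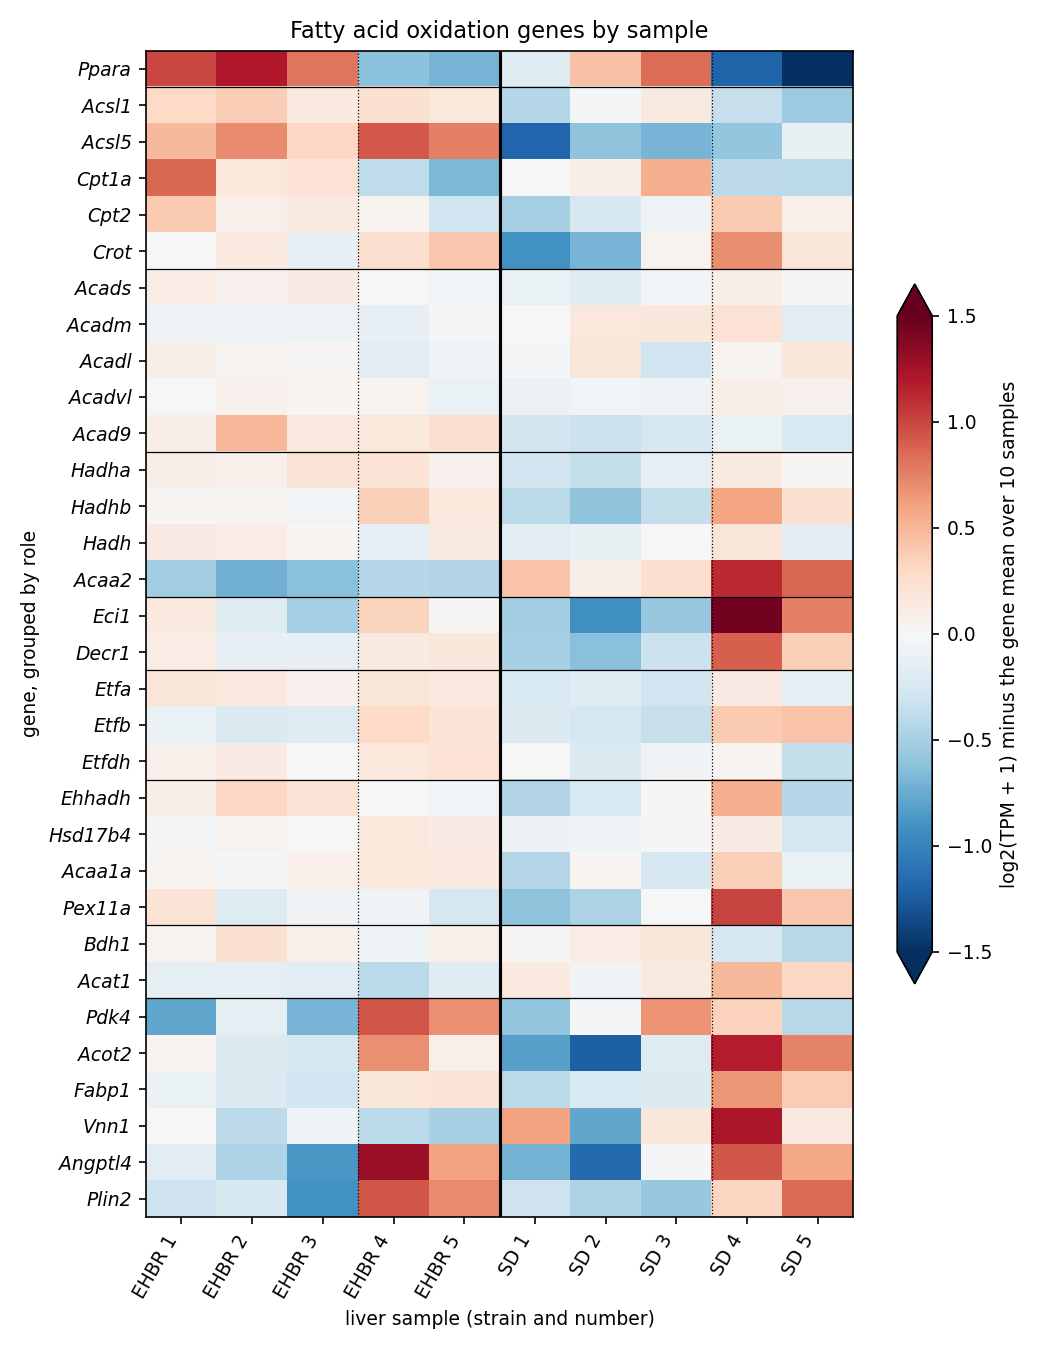
Level of each of 32 kept genes (rows, grouped by role) in each liver sample (columns, EHBR left of SD), as log2(TPM + 1) minus the gene's mean over 10 samples. Acsl5 is above its mean in all 5 EHBR samples and Acaa2 below, and 15 genes have their highest level in SD sample 4.

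In both strains, samples 4 and 5 formed a pair distinct from samples 1 to 3, a division that the labels do not explain and that is balanced between the strains. Mitochondrially encoded transcripts took 14.1% to 15.3% of TPM in EHBR samples 1 to 3 and 15.1% to 16.2% in EHBR samples 4 and 5, against 13.0% to 13.4% and 17.0% to 17.4% in SD. Ribosomal protein genes took 2.60% to 2.73% and 3.40% to 3.75% in EHBR, against 2.53% to 2.86% and 4.36% to 4.86% in SD. Strain differences of the members are therefore also given within numbers 1 to 3 and within numbers 4 and 5.

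Ppara, the receptor gene itself, was scarce and followed the sample numbers more than the strain. It stood at 15.4, 17.8, 13.3, 4.34 and 4.05 TPM in EHBR samples 1 to 5, against 6.23, 10.1, 13.6, 2.55 and 1.72 TPM in SD samples 1 to 5. Samples 4 and 5 were the lowest in each strain, and the strains overlapped. EHBR exceeded SD by 0.68 (SE 0.53, adjusted p = 0.474, limma), with 0.64 among numbers 1 to 3 and 0.74 among numbers 4 and 5. Leaving out SD sample 5 lowered it to 0.37, and over all fits that left out 1 sample it was 0.37 to 0.97. With a term for this division in the model the SE of the same difference was 0.18 and its adjusted p = 0.0273 (limma), in a fit that called 5 members higher and 2 lower, against 13.6% and 3.36% of all genes. The 3 members that this term added were Ppara, Acsl1 and Etfa. The values rest on 83 to 384 reads per sample in EHBR and 48 to 300 in SD. After Ppara, the scarcest kept members were Vnn1, Pex11a, Acot2 and Pdk4, and the most abundant was Fabp1.

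Acyl-CoA synthetases activate fatty acids, and both members of this class were higher in every EHBR sample than in any SD sample. Acsl5, which is found on mitochondria and endoplasmic reticulum, stood at 316, 367, 279, 426 and 381 TPM in EHBR, against 97.7, 147, 138, 149.6 and 209 TPM in SD. Acsl5 rose by 1.27 in log2 units (adjusted p = 0.00204, limma, SE 0.18), with 1.33 among numbers 1 to 3 and 1.18 among numbers 4 and 5. It kept its call in each of 26 alternative fits. Acsl5 lies on chromosome 1 from 276240703 to 276290008 in rn6, on the + strand, and starts 12.6 megabases beyond the end of Abcc2.

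Acsl1, the main acyl-CoA synthetase of liver and a known PPARa target, had 849, 894, 765, 809 and 774 TPM in EHBR, against 516, 682, 761, 546 and 474 TPM in SD. The highest SD sample, number 3, came just below the lowest EHBR sample. Acsl1 missed the threshold at 0.48 (SE 0.13, adjusted p = 0.0588, limma), and its difference was 0.37 and 0.64 within numbers 1 to 3 and numbers 4 and 5. With the term for the division its adjusted p was 0.0163 (limma), and it also passed without SD sample 2 or without SD sample 3 (adjusted p = 0.0485 and 0.0178, limma). Scaling lowered the difference to 0.31 with median centring (adjusted p = 0.182) and to 0.27 with the length trend removed (adjusted p = 0.201).

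The carnitine shuttle showed no strain difference that passed. Cpt1a, the outer membrane carnitine palmitoyltransferase that sets the rate of entry, averaged 69.4 ± 29.8 TPM in EHBR and 63.5 ± 18.2 TPM in SD (SD, n = 5 each). In both strains its samples 4 and 5 lay below its samples 1 to 3. Cpt2, the inner membrane enzyme, averaged 69.0 ± 11.8 TPM in EHBR and 62.98 ± 14.99 TPM in SD. Crot, which makes carnitine esters of medium chains in peroxisomes, averaged 71.8 ± 10.2 TPM in EHBR and 63.9 ± 28.7 TPM in SD.

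**Figure D2:**
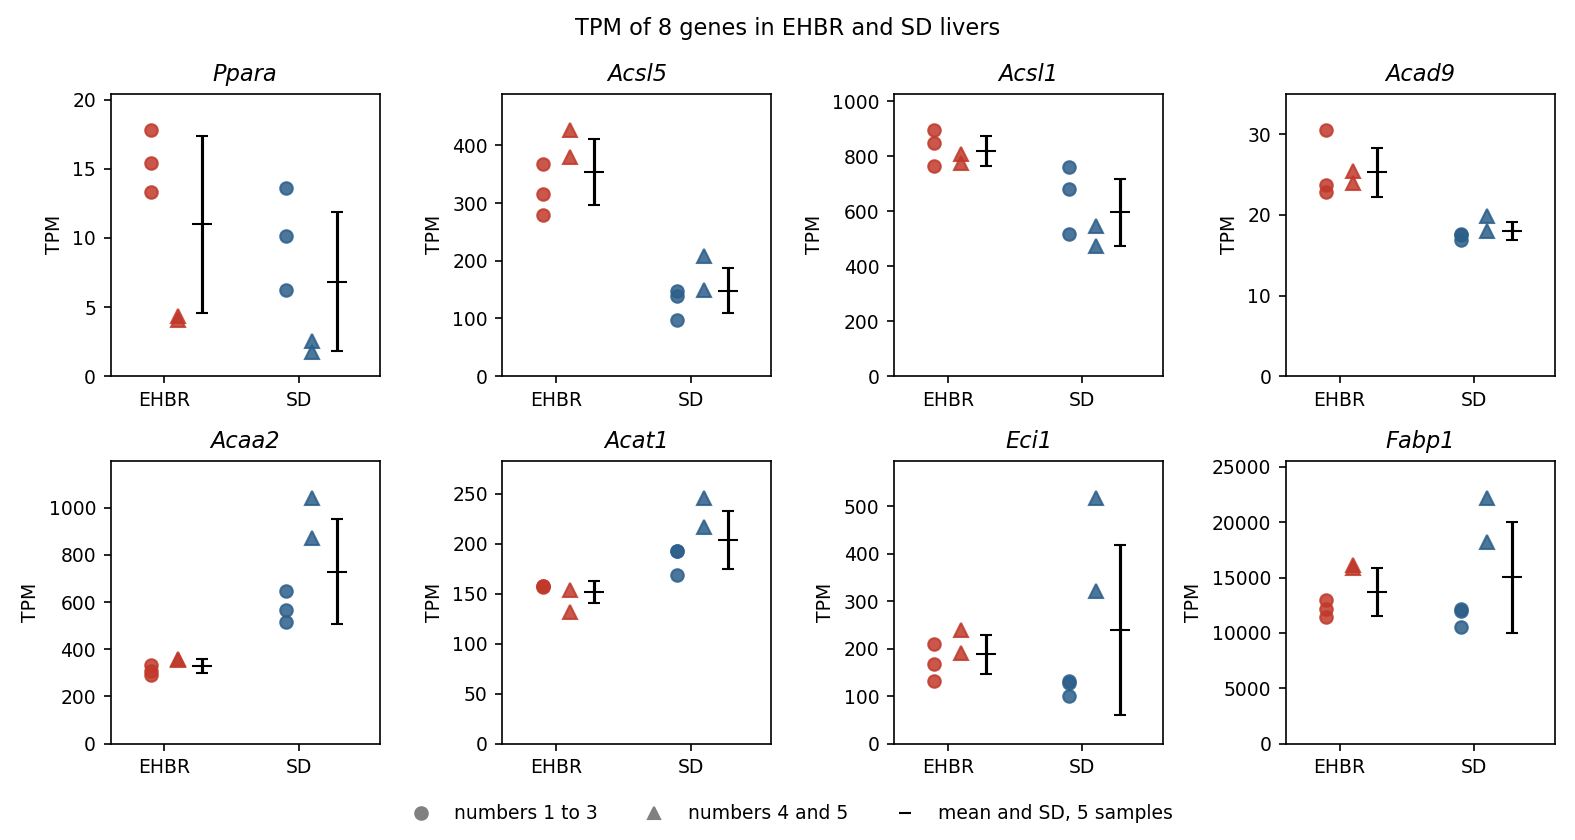
TPM of 8 genes in each EHBR (red, left) and SD (blue, right) liver, with circles for numbers 1 to 3, triangles for numbers 4 and 5, and the mean with SD over 5 samples beside them. The strains are separate for Acsl5, Acsl1, Acad9, Acaa2 and Acat1 and overlap for Ppara, Eci1 and Fabp1.

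The proximal upstream sequences of 3 members are shown because these genes carry the main patterns: Fabp1 as the most abundant member, Acsl5 as the member with the largest rise, and Eci1 as the member whose strain difference fell most between the divisions. Each is the 250 bases before the annotated start, 5′ to 3′ on the gene's strand, from RefSeq on GRCr8. Fabp1 is at chr4:104749090-104749339, Acsl5 at chr1:264294601-264294850 and Eci1 at chr10:13961000-13961249, all on the + strand. Capitals mark matches to AGGNCANAGGNCA (a DR1 pattern), to its core hexamer AGGTCA or to TATAAA, each searched on both strands, and a hexamer match may lie within a DR1 match.
Fabp1: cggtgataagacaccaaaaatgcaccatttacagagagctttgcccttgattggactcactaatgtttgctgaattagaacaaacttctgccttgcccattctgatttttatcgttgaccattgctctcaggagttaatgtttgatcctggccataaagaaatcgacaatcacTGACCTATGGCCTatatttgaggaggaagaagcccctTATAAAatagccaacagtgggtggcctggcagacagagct
Acsl5: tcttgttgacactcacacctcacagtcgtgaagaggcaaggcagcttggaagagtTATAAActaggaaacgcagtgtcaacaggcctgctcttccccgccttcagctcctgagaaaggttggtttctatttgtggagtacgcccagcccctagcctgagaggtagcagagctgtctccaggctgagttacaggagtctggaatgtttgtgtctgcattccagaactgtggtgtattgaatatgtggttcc
Eci1: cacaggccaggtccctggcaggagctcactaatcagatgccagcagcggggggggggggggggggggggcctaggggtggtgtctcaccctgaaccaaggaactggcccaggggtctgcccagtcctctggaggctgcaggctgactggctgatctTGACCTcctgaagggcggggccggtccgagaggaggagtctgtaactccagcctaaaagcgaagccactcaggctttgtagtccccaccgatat

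Fabp1 was the 1 member with a DR1 match among the 29 members of the files that have an upstream sequence, and 0.368% of all 33469 upstream sequences had one. That match spans bases -77 to -65 on the opposite strand and includes the hexamer, and TATAAA follows at -40 to -35. In Acsl5 only TATAAA was found, at -195 to -190, in a window where 12.9% of all sequences hold it. Eci1 had the hexamer at -94 to -89 on the opposite strand, as did 14.1% of all sequences on either strand. These matches describe letters and are not evidence of binding. Acaa2, Acadl, Decr1 and Vnn1 had no entry.

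The acyl-CoA dehydrogenases, which open each mitochondrial cycle for chains of different length, did not pass the test apart from Acad9. Acad9, which is also an assembly factor of respiratory complex I, had 22.9, 30.5, 23.7, 23.9 and 25.5 TPM in EHBR, against 17.5, 16.8, 17.7, 19.9 and 18.0 TPM in SD. All EHBR samples lay above all SD samples. It rose by 0.46 (SE 0.10, adjusted p = 0.0216, limma), with 0.53 and 0.37 within numbers 1 to 3 and numbers 4 and 5. This call depended on the scaling: after median centring the difference was 0.30 with an adjusted p = 0.312, and it was also lost without EHBR sample 2 (adjusted p = 0.0630) or SD sample 1 (adjusted p = 0.0542).

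Acadl, for long chains and the most abundant of these enzymes, averaged 430.1 ± 28.4 TPM in EHBR and 439.7 ± 57.6 TPM in SD (SD, n = 5 each). Acadm, for medium chains, averaged 319 ± 8.01 TPM in EHBR and 356 ± 37.8 TPM in SD. Acads, for short chains, averaged 160.1 ± 8.09 and Acadvl, for very long chains, 183 ± 8.48 TPM in EHBR, against 149 ± 10.4 and 181 ± 11.1 TPM in SD. None of these 4 passed the test. Their spread was smaller in EHBR than in SD in each case, which was not tested.

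The last steps of the mitochondrial cycle held the largest fall. Acaa2, the mitochondrial 3-ketoacyl-CoA thiolase, stood at 333, 290.3, 310, 358 and 353 TPM in EHBR, against 647, 515, 566, 1042 and 873 TPM in SD. No EHBR sample reached the lowest SD sample. Acaa2 fell by 1.10 in log2 units (adjusted p = 0.00434, limma, SE 0.18). Within the divisions the value was -0.88 among numbers 1 to 3 and -1.42 among numbers 4 and 5, and the call held in each of 26 alternative fits. Acaa2 lies on chromosome 18 from 70733872 to 70762395 in rn6.

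The other enzymes of these steps did not pass the test. Hadha and Hadhb, the subunits of the trifunctional protein that completes the cycle for long chains, averaged 147 ± 7.02 and 156 ± 17.6 TPM in EHBR, against 124 ± 17.9 and 141 ± 52.0 TPM in SD. Hadh, the short-chain hydroxyacyl-CoA dehydrogenase, averaged 218 ± 16.4 TPM in EHBR and 203 ± 21.1 TPM in SD. Among numbers 1 to 3 alone, Hadha and Hadhb were higher in EHBR by 0.39 and 0.46 and passed the test, in a fit that called 4.35% of all genes higher and 2.17% lower. Among numbers 4 and 5 their differences were 0.06 and -0.16 (adjusted p = 0.767 and 0.518, limma). That fit called 5 members higher and 1 lower, and the fit within numbers 4 and 5 called 2 higher and 1 lower (4.15% and 1.01% of all genes).

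Electron transfer flavoprotein, made of Etfa and Etfb, passes electrons from the dehydrogenases to its oxidoreductase Etfdh. Etfa had 302, 293, 278, 300.1 and 293 TPM in EHBR, against 226, 234, 216, 288 and 241 TPM in SD. SD sample 4 alone overlapped the EHBR range. Etfa missed the threshold at 0.29 (SE 0.09, adjusted p = 0.0917, limma), and passed with the term for the division (adjusted p = 0.0216, limma) or without SD sample 4 (adjusted p = 0.0254, limma). Scaling lowered the difference to 0.12 with median centring (adjusted p = 0.751) and to 0.13 with upper-quartile FPKM (adjusted p = 0.689). Etfb averaged 509.6 ± 85.8 TPM in EHBR and 518 ± 139.5 TPM in SD, and Etfdh 179 ± 10.4 TPM in EHBR and 153 ± 17.2 TPM in SD (SD, n = 5 each).

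Auxiliary enzymes for unsaturated chains had strain differences of opposite sign within numbers 1 to 3 and within numbers 4 and 5, which did not pass the test. Eci1, the mitochondrial enoyl-CoA isomerase, had 209, 168, 133, 239.7 and 191 TPM in EHBR, against 132, 99.9, 128, 518 and 321 TPM in SD. SD samples 4 and 5 were the highest of all 10 and the other SD samples the lowest. EHBR minus SD was 0.48 among numbers 1 to 3 and -0.93 among numbers 4 and 5. Decr1, the mitochondrial dienoyl-CoA reductase, had 201, 171, 171, 205 and 209 TPM in EHBR, against 132, 119.7, 149, 348 and 238 TPM in SD. Its differences were 0.44 and -0.47, and SD samples 4 and 5 were again above every EHBR sample.

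Peroxisomal members did not differ between the strains by the test. Ehhadh, the peroxisomal bifunctional enzyme, had 109, 127, 118, 102 and 99.3 TPM in EHBR, against 75.0, 87.5, 104, 149 and 75.6 TPM in SD. SD sample 4 was the highest of all and SD samples 1 and 5 the lowest. Acaa1a, a peroxisomal thiolase, averaged 378 ± 20.1 TPM in EHBR and 344 ± 73.0 TPM in SD (SD, n = 5 each). Its value is uncertain because of the near-identical copy Acaa1b, and relative to the median gene its TPM was lower than its FPKM by 0.25 to 0.36 on the log2 scale. Hsd17b4, the second bifunctional enzyme, averaged 216 ± 12.1 TPM in EHBR and 198 ± 19.1 TPM in SD. Pex11a, a peroxisome division protein that PPARa induces, had 12.5, 9.23, 10.3, 10.3 and 8.87 TPM in EHBR, against 6.73, 7.42, 10.7, 22.7 and 14.5 TPM in SD. For Pex11a too, SD samples 4 and 5 lay above every EHBR sample.

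Of the ketone body genes, Acat1 passed the test and Bdh1 did not. Acat1, the mitochondrial acetoacetyl-CoA thiolase, had 158, 158, 157, 132 and 153 TPM in EHBR, against 193, 169, 192, 246 and 217 TPM in SD. The strains did not overlap. Acat1 fell by 0.41 (SE 0.11, adjusted p = 0.0487, limma), with -0.22 and -0.70 within numbers 1 to 3 and numbers 4 and 5. That call was at the threshold: it was lost in 22 of 26 alternative fits, among them 9 of the 10 that left out 1 sample (adjusted p 0.0254 to 0.111), the exception being SD sample 2. Bdh1, which reduces acetoacetate to hydroxybutyrate, had 258, 289.9, 262, 237 and 262 TPM in EHBR, against 250.3, 267, 279.7, 209 and 185 TPM in SD. SD samples 4 and 5 were its lowest.

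The remaining PPARa targets were led by Fabp1, the liver fatty acid binding protein that carries ligands to the receptor. Fabp1 had 13009, 12184, 11434, 15857 and 16123 TPM in EHBR, against 10536, 11944, 12184, 22202 and 18221 TPM in SD. Samples 4 and 5 were the highest within each strain, and the SD pair the highest of all. Vnn1, the pantetheinase vanin, averaged 7.93 ± 1.42 TPM in EHBR and 13.2 ± 6.93 TPM in SD. Acot2, a mitochondrial acyl-CoA thioesterase, had 14.2, 11.7, 11.3, 22.8 and 14.6 TPM in EHBR, against 7.38, 5.31, 11.9, 32.4 and 23.7 TPM in SD. Its neighbour and close copy Acot1 stood at 0.124 to 1.20 TPM in EHBR and 0.178 to 2.44 TPM in SD, on 1 to 32 and 5 to 77 reads per sample, so its values are uncertain.

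Pdk4, Angptl4 and Plin2 are targets that fasting and fatty acids raise: a kinase that restrains pyruvate oxidation, a secreted inhibitor of lipoprotein lipase, and a lipid droplet coat protein. Pdk4 had 9.59, 15.6, 10.2, 33.9 and 28.3 TPM in EHBR, against 11.2, 16.9, 28.1, 22.2 and 12.7 TPM in SD. Its EHBR samples 4 and 5 were the highest of all 10, and its SD samples 4 and 5 lay among the others. Angptl4 had 27.9, 22.3, 16.5, 77.8 and 47.9 TPM in EHBR, against 18.7, 13.3, 30.4, 60.3 and 46.5 TPM in SD. Plin2 had 78.5, 82.2, 51.5, 187 and 159 TPM in EHBR, against 78.4, 70.2, 65.4, 122 and 176 TPM in SD. For Angptl4 and Plin2, samples 4 and 5 were above samples 1 to 3 in both strains, with no strain difference that passed.

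**Figure D3:**
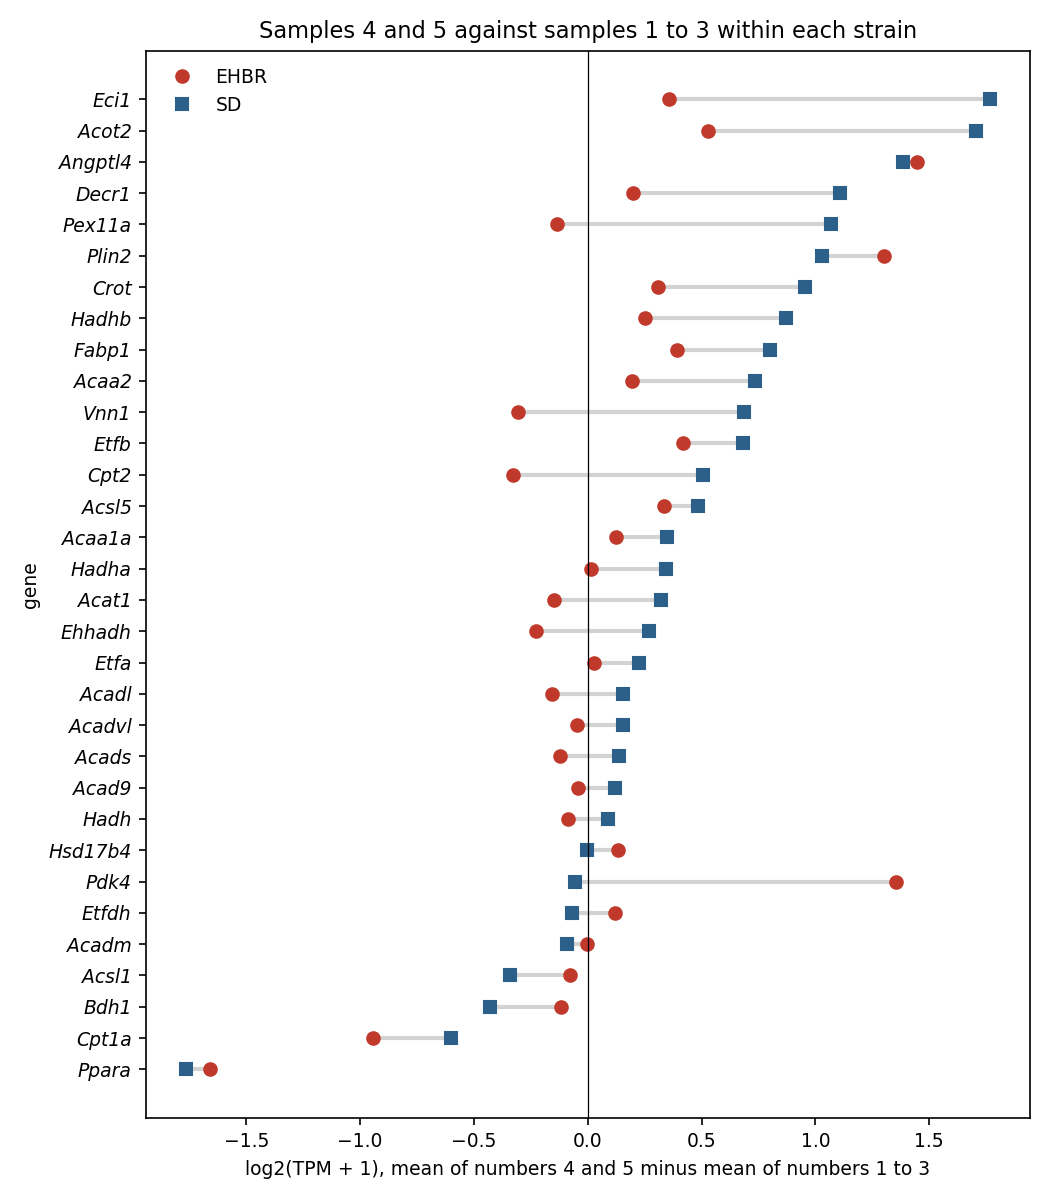
Mean log2(TPM + 1) of numbers 4 and 5 minus that of numbers 1 to 3 for 32 genes (rows), in EHBR (red circles) and SD (blue squares). The SD value lies to the right of the EHBR value in 23 of these genes, against 30.7% of all genes. Ppara lies far to the left in both strains, at -1.66 and -1.76.

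Across the members, numbers 4 and 5 differed from numbers 1 to 3 by more in SD than in EHBR in the median, while the median of all genes had the opposite sign. The median member was higher in numbers 4 and 5 than in numbers 1 to 3 by 0.02 in EHBR and by 0.33 in SD, while the median gene differed by -0.12 in EHBR and -0.32 in SD. Samples 4 and 5 lay above samples 1 to 3 without overlap for 14 of 32 members in EHBR (12% of all genes) and 19 in SD (11.2% of all genes). They lay below without overlap for 8 members in EHBR (33.6% of all genes) and 3 in SD (51.4% of all genes), Ppara and Cpt1a in both strains. SD sample 4 had the highest TPM of all 10 samples for 15 members, against 4.25% of all genes. SD sample 5 had the highest for 1 member (7.12% of all genes) and the lowest for 7 (35.8%). The median member's deviation from its mean was 0.33 in SD sample 4 and 0.04 in SD sample 5. In SD samples 1 to 3 it was -0.28, -0.22 and -0.04. These are descriptions, since the division was seen in these data.

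**Figure D4:**
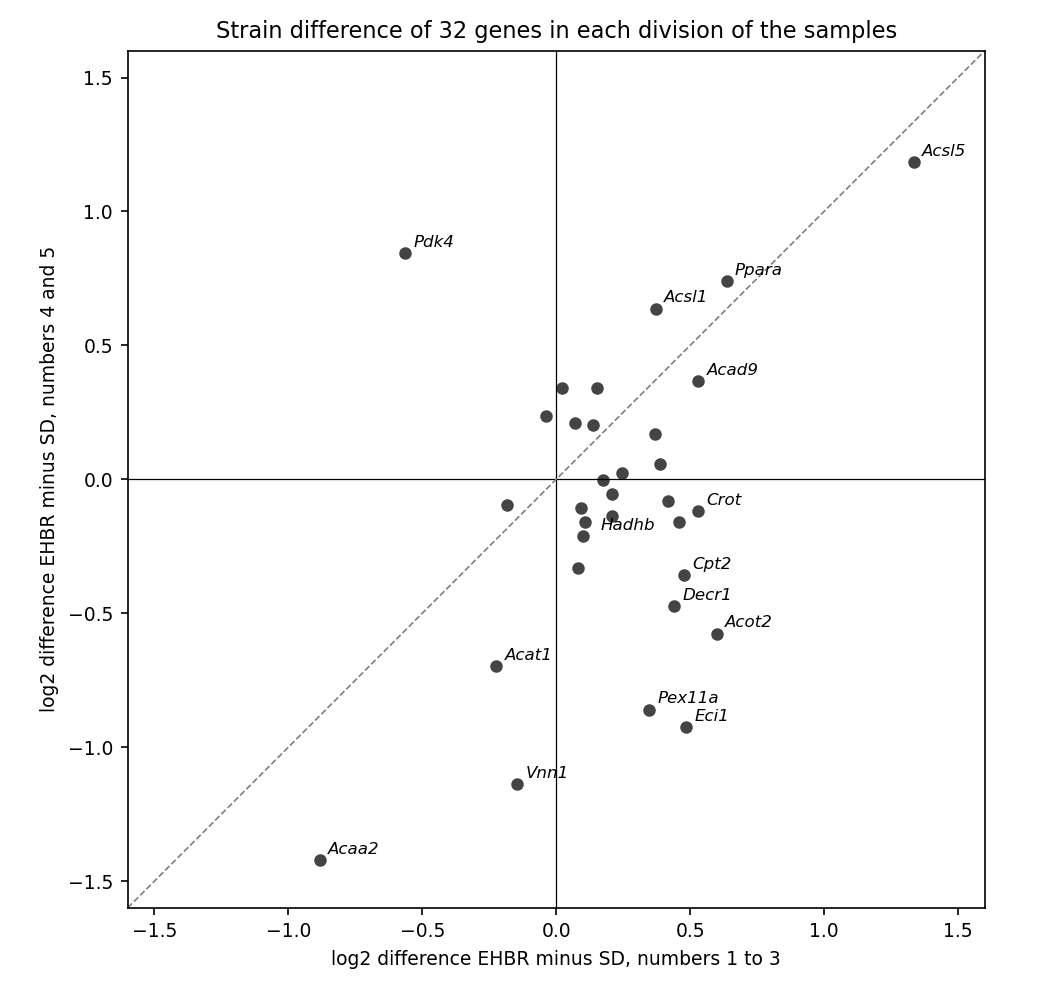
Strain difference (log2, EHBR minus SD) of 32 genes within numbers 1 to 3 (horizontal axis) and within numbers 4 and 5 (vertical axis), with the dashed line marking equal differences. Eci1, Pex11a, Acot2, Decr1 and Cpt2 lie right of 0 and below 0, Pdk4 lies opposite, Acsl5 lies at the upper right (1.33 and 1.18), and Acaa2 lies at the lower left (-0.88 and -1.42), below the line.

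Whether the strain difference itself changed between the divisions was tested with a term for strain by division in limma over all 11083 genes. No member passed after adjustment, with the lowest adjusted p = 0.0980 for Eci1, and 0.271% of all genes did. At an unadjusted p under 0.05 there were 14 members, 12 of them with a lower EHBR minus SD difference in numbers 4 and 5 and 2 with a higher one. Of all genes, 20.3% had an unadjusted p under 0.05 and 3.87% did so with a negative term. These shares depended on the scaling: with median centring 19 members and 12.2% of all genes had such a negative term, and with upper-quartile FPKM 16 members and 10.2%. The counts of 12 and 2 also rest on only 2 samples per strain in numbers 4 and 5. The median member's term was -0.26 with all samples, -0.24 without SD sample 4 and -0.34 without SD sample 5. Further fits on recovered reads with limma's voom were added after the data were seen. With library totals voom called 0 members and 0.264% of all genes, and with upper-quartile scaling 0 members and 0.319%. With trimmed mean scaling it called 3 members, Decr1, Eci1 and Hadhb, all negative, and 0.455% of all genes.

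The sizes of these terms, named after their values were seen, were -1.41 for Eci1 (SE 0.34), -1.21 for Pex11a (SE 0.32), -1.18 for Acot2 (SE 0.41), -0.91 for Decr1 (SE 0.22), -0.83 for Cpt2 (SE 0.23) and -0.62 for Hadhb (SE 0.17). Vnn1 and Crot had terms of -0.99 (SE 0.56) and -0.65 (SE 0.36), with an unadjusted p above 0.05 (limma). Pdk4 had the largest positive term, 1.41 (SE 0.50), and Acsl5 and Ppara had terms of -0.15 and 0.10. In 15 of 32 members the strain difference was positive in numbers 1 to 3 and negative in numbers 4 and 5, as in 10.2% of all genes. The median member differed between strains by 0.21 among numbers 1 to 3 and by -0.09 among numbers 4 and 5, where the median gene differed by 0.07 and 0.27.

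Several levels moved with this division in at least 1 strain, among them Abcc2, given above. A list of 16 genes of fasting and glucocorticoid response, which shares Cpt1a, Pdk4 and Angptl4 with the members, added up to 2655 to 4031 TPM in EHBR samples 1 to 3 and 1276 to 1435 TPM in EHBR samples 4 and 5, against 1725 to 2245 and 1067 to 1106 TPM in SD. Fkbp5, a glucocorticoid target, was the 1 of its 15 kept genes that passed the strain test, as higher. The genes of this list did not all move as the sum did. Of the shared members, Cpt1a was lower in samples 4 and 5 in both strains. Angptl4 was higher there in both strains, and Pdk4 in EHBR alone. Stellate cell markers added up to 218 to 242 TPM in EHBR samples 1 to 3 and 193 to 204 TPM in EHBR samples 4 and 5, against 218 to 252 and 138 to 155 TPM in SD. Col3a1, the largest part of that sum, was lower in samples 4 and 5 in both strains, while Pdgfrb of the same list was higher. Erythroid markers separated by the division in EHBR alone, where they added up to 2256 to 2487 and 1000.2 to 1269 TPM. In SD they added up to 752 to 1194 and 1185 to 1705 TPM, which overlap. As with the shares of mitochondrial and ribosomal protein transcripts given above, their part in the members' values was not tested.

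Other genes of the pathway, a list of 78 symbols that are not members, gave 74 matches and 66 kept genes. Of these, 10 were higher and 2 lower in EHBR (limma), against 3.82% and 1.63% of all genes. These calls are on TPM, where the median gene differed by 0.15, and whether they hold under other scalings is not given. The largest difference among them was that of Cyp4a2, a fatty acid omega-hydroxylase and PPARa target in rodents, which had 11.6, 10.05, 10.2, 22.2 and 19.1 TPM in EHBR, against 431, 25.1, 604, 912 and 703 TPM in SD. SD sample 2 was far below the other SD samples yet above all EHBR samples. Cyp4a2 fell by 4.50 (adjusted p = 0.00731, limma), and its level is uncertain because Cyp4a genes are close copies of each other. Cyp4a1 and Cyp4a3, also on this list, differed by 0.50 and -0.22 and did not pass (adjusted p = 0.260 and 0.744, limma). Nudt19, a peroxisomal coenzyme A hydrolase in mouse, fell to 17.0 ± 1.55 TPM in EHBR, against 26.9 ± 4.26 TPM in SD (SD, n = 5 each).

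Among the higher ones, Acsl4, an arachidonate-preferring acyl-CoA synthetase, rose to 79.5 ± 7.93 TPM in EHBR, against 46.3 ± 10.8 TPM in SD (log2 difference 0.79, adjusted p = 0.0104, limma). Acad11, an acyl-CoA dehydrogenase, rose to 60.5 ± 2.83 TPM in EHBR, against 45.0 ± 1.96 TPM in SD. The fatty aldehyde dehydrogenase Aldh3a2 rose to 246 ± 22.6 TPM in EHBR, against 185 ± 15.6 TPM in SD. Gpd1, the glycerol 3-phosphate dehydrogenase, averaged 531 ± 83.2 TPM in EHBR and 354 ± 54.9 TPM in SD, and Aqp9, the glycerol channel of liver, 246 ± 31.5 TPM in EHBR and 173 ± 25.1 TPM in SD.

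Aqp3, another glycerol channel, also passed as higher and had 1.84, 1.81, 1.43, 4.07 and 3.19 TPM in EHBR, while in SD it was listed at 0 in samples 1 to 3 and at 0.0403 and 0.276 TPM in samples 4 and 5. Mgll, Bdh2, Me1 and Fabp4 also rose, by 0.63, 0.72, 1.49 and 1.39 on the log2 scale. Fabp4 is also an adipocyte marker. Of that list's 8 genes 7 were in the files and 3 were kept, with a median difference of -0.58 and summed levels of 26.6 to 31.5 TPM in EHBR and 17.3 to 39.1 TPM in SD. Cfd, an adipocyte serine protease, had 5.37 to 9.16 TPM in EHBR, against 9.48 to 17.0 TPM in SD, and did not pass. Lep and Plin1 were listed at 0 in all 10 samples and Adipoq in 9. The part of adipocytes in the Fabp4 difference was not tested.

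Among markers of other cell types, 3 of 9 kept endothelial genes (Kdr, Stab1 and Stab2) were higher in EHBR, and the list added up to 122 to 160.0 TPM in EHBR and 93.8 to 113 TPM in SD. The sum of 8 cholangiocyte markers was 12.4 to 13.9 TPM in EHBR and 15.5 to 17.5 TPM in SD. That of 8 neutrophil markers was 2.85 to 5.02 TPM in EHBR and 5.47 to 8.75 TPM in SD. In each of these lists only 2 genes passed the filter and were tested, and none of them was called. Acinar pancreas markers added up to 3.15 to 4.46 TPM in EHBR and 0.970 to 1.38 TPM in SD, and in EHBR most of this was Cpb1. Cpb1 was the 1 kept gene of that list and passed as higher, while Prss1, Pnlip and Ctrb1 were listed at 0 in every sample. Hepatocyte markers added up to 160853 to 184482 TPM in EHBR and 140743 to 172691 TPM in SD, and none of 9 passed. Sums of Kupffer cell, stellate, erythroid, lymphocyte and adipocyte markers overlapped between the strains, and of these Slc4a1 (erythroid) and Fabp4 passed, as higher. The part of these cell types in the members' differences was not tested.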

How the data were processed

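The values come from poly(A) libraries prepared with a strand-marking kit after TRIzol extraction, per the labels' protocols. The build rn6, HISAT2 2.1.0, featureCounts 1.6.3, FastQC 0.11.7 and Trimmomatic 0.38 appear in the submitters' processing notes, which give no settings. Whether reads were counted by strand is not stated there, so overlapping genes are uncertain. The authors deposited TPM, FPKM and upper-quartile FPKM, a signal scaled to each sample's upper quartile, for 32883 genes. Groups and numbers were taken from sample titles.

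Two-sided limma 3.58.1 tests (R 4.3.3, trend option) were run on log2 of TPM + 1, keeping a gene that reached 1 TPM in 5 or more of the 10 samples. Reads were recovered from upper-quartile FPKM by a search, gene by gene, for a length at which every value is whole within 0.002 reads. Wholeness is thus a condition of the search and no check of it, no single step fits all genes of a sample, and the reads are estimates that add up to 99.7% to 99.8% of the totals that FPKM implies. Apart from the voom fits, no test was run on these reads. They give the depth and, for 10979 kept genes, voom fits with 3 scalings. Alternatives were other units, pseudocounts, filters and scalings, terms for the division or the number, and leaving out samples.

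The members and lists were chosen with earlier results of these data known. Genes chosen to be named were Ppara, members called with or without the division term, and members called by strain by division. The most abundant and most different member of each role were added, which gave 15 genes. Of these, Acadl, Etfb, Acaa1a and Vnn1 are given by mean and SD and the others by sample. Other members given by sample were chosen after their values were seen. Of the other pathway genes, up to 12 called ones were named, and Cyp4a1 and Cyp4a3 were given beside Cyp4a2. The tables hold 0 columns of other samples. Some genes of the pathway are not reported here.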

Additional observations from a re-analysis of the deposited data

Results flagged for a closer look

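Acat1 in EHBR sample 4, at 132 TPM, lay below the other 4 EHBR samples by more than Dixon's 95% critical value for 5 samples allows (a gap of 0.820 of the group's range, against 0.71). It was the 1 sample so found among 33 members in each of 2 strains, and chance gives about 1 in 20 groups. Without that sample the log2 difference of Acat1 was -0.36 (adjusted p = 0.111, limma).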

How the results depend on the processing

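The number of members called higher in EHBR was 2 and became 1 with FPKM or upper-quartile FPKM in place of TPM, quantile normalization, median centring, the length trend removed and each of 3 voom fits, and 5 with a term for the division or among numbers 1 to 3. The number called lower was 2 and became 1 with FPKM, with upper-quartile FPKM, median centring, the length trend removed, each voom fit, pseudocounts of 0.1 and 5, no filter, the replicate block and within either division. With 1 sample left out the counts were 1 to 3 higher and 1 to 2 lower. The median log2 difference of members, 0.12, became -0.088 among numbers 4 and 5 and -0.066 with voom and trimmed mean scaling, was also below 0 with median centring (-0.05), upper-quartile FPKM (-0.05), the length trend removed (-0.03) and voom on upper quartiles (-0.03), and ranged from 0.05 to 0.22 with 1 sample left out. By strain by division, voom with trimmed mean scaling called 3 members, where limma on TPM, the other voom fits and every fit that left out a sample called 0. The median gene moved from 0.15 to 0.10, 0.04 and 0.006 with voom on totals, upper quartiles and trimmed means. Over all genes, 423 higher and 181 lower became 1506 and 372 with the division term, 219 and 262 with upper-quartile FPKM, 314 and 290 with quantile normalization, 193 and 266 with centring, 235 and 298 with the length trend removed, 246 and 216 and 211 and 256 with voom on upper quartiles and trimmed means, and 243 to 439 and 135 to 179 with 1 sample left out. The removal of the length trend, the voom fits and the fit without both samples numbered 4 were added after the data were seen. Acsl5 and Acaa2 kept their calls throughout, and no single member's log2 difference or strain by division term tested in this way changed sign. Same-numbered samples correlated at 0.0742 to 0.287 in their deviations from strain means, and 4 of 10 samples correlated best with their own number. All correlations between the strains were positive within a division and negative across divisions. With so few numbers per division, whether the numbers pair the samples cannot be told from these values. With the replicate block, 639 genes were higher and 222 lower, among them 3 members and 1 member, Acsl1 joining (adjusted p = 0.0476) and Acat1 leaving (adjusted p = 0.0723, limma), and Ppara had an adjusted p = 0.0573. Reads limit Ppara and Acot1, which has as few as 1 read in a sample.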
